A study of Mus musculus with 8 samples.

Results

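The regions described here are stretches of chromatin, away from the ends of genes, where a peak of H3K27ac was called in untreated mouse embryonic stem cells and no longer called after 2 h of 4-hydroxytamoxifen (4OHT). H3K27ac is the acetylation of lysine 27 of histone H3, measured by chromatin immunoprecipitation and sequencing. Peaks of the 4 libraries were joined into 82792 union regions wherever they overlapped by 1 bp or more. Of these, 57563 lay more than 1 kb from either end of every protein-coding gene and at most 100 kb from the nearest gene interval. A region was kept as lost when peaks of both untreated libraries and of neither 4OHT library touched it. This gave 4046 lost regions, 7.03% of those 57563. The mirror pattern, called gained, held 3820 regions (6.64%), and 16698 regions were called in all 4 lists. Lost regions made up 51.4% of the regions that changed in both clones. The peak calls chose these regions, so the absence of treated peaks in them is the rule and not a result.

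The cells were of the E14tg2a line, a feeder-independent embryonic stem cell line of 129SV background, and stably expressed cRAF-ErT2, a RAF kinase joined to an oestrogen receptor domain that responds to 4OHT. All groups shared a culture in serum, LIF and 2 uM Chir99021, an inhibitor of GSK3, and a medium change 24 h before treatment to serum with LIF and the FGF receptor inhibitor PD173074 at 250 nM. Untreated cells (clones a and b) were compared with cells given 250 nM 4OHT for 2 h (clones a and b), so each group had 2 libraries. The labels name no vehicle control and no cells without the fusion protein, so effects of 4OHT itself and of RAF cannot be told apart. The labels call the replicates clones of the transgenic line and do not say how many cultures each library came from, so spreads given below are between these 2 libraries.

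H3K27ac is laid down by the acetyltransferases p300 and CBP and marks promoters and enhancers in use, while histone deacetylases remove it. Enhancers bind transcription factors and act on promoters that may lie far away, often across other genes. In embryonic stem cells, ERK signalling downstream of FGF moves cells out of the naive state toward differentiation, and LIF acting through STAT3 holds them in it. A region that loses a peak is called enhancer-like here from this mark and its position alone, since no other mark was analysed.

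The lists held 59170 to 63276 peaks and covered 50.4 to 53.1 Mb per library. No file gives read counts, so depth is unknown and a missing peak may be a signal just below the authors' threshold. As a check of cell identity, 22 of 25 naive pluripotency genes and 12 of 13 core pluripotency genes had a peak within 1 kb of an end in at least 1 library. Summed over the core list this came to 26.9 and 26.5 kb in untreated clones a and b, against 28.02 and 27.9 kb in treated ones. Markers of other cells were mostly bare: 11 of 15 fibroblast markers, among them Col1a2, Thy1 and Prrx1, and 14 of 18 markers of differentiated tissues, among them Alb, Gfap and Krt14, were at 0 in all 4 libraries. The fibroblast list summed to 3.27 and 3.48 kb in untreated clones a and b, against 5.43 and 6.60 kb in treated ones, and its part in any result was not tested.

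No mouse genome sequence was used, so sequence was read only where a lost region met a start window of RefSeq (GRCm38.p6, the coordinates of mm10), which runs from 250 bases before to 50 after an annotated start. Few did: 50 lost regions, 1.24% of them, against 112 gained regions (2.93%) and 1443 regions called in all 4 lists (8.64%). Most of the starts touched belonged to transcripts that are not protein-coding, in 36 of the 50 regions. In 12 the whole window lay inside the lost region. The 4 printed here are starts of long non-coding RNAs, chosen because they sit in the strongest of those 12 regions or in regions whose nearest coding gene is Foxp1, Etv6 or Pim1. Gm30234 lies on the minus strand at chr19:53064640-53064939, in a lost region 24.8 kb from Xpnpep1, and the capitals mark the ESRRB motif TCAAGGTCA. Gm52870 lies on the plus strand at chr6:99204322-99204621, within the interval of Foxp1, and the capitals mark the KLF motif CCNCACCC read on the other strand. Gm38908 lies on the minus strand at chr6:134222820-134223119, within Etv6, and Gm36486 on the minus strand at chr17:29437530-29437829, 52.8 kb from Pim1. Neither holds a motif put in capitals.
Gm30234: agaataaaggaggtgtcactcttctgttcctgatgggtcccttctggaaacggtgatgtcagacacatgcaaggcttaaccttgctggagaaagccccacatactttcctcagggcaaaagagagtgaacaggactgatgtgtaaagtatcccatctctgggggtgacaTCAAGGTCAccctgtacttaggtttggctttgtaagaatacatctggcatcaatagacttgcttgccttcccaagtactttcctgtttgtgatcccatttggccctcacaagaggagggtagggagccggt
Gm52870: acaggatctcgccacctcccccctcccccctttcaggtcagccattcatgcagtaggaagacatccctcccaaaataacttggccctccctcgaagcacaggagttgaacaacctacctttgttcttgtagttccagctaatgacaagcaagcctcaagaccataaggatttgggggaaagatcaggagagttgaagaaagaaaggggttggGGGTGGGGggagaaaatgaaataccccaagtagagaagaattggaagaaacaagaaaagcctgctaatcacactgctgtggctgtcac
Gm38908: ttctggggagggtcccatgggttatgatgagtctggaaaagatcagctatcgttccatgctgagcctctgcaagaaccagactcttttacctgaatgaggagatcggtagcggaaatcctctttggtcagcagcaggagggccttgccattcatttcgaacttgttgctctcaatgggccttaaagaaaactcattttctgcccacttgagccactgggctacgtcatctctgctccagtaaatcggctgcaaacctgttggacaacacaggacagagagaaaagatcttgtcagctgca
Gm36486: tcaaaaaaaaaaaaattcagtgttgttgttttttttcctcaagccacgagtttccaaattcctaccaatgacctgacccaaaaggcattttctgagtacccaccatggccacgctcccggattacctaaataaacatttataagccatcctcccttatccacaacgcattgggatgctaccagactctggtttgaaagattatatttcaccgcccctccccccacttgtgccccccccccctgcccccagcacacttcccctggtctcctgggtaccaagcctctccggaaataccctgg

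The Gm30234 region was covered by 2160 bp of peaks in untreated clone a and 1133 bp in clone b, with score percentiles of 86.9 and 67.9 in their lists. The Gm52870 region had 927 and 669 bp. The Gm38908 region had 398 and 252 bp, and the Gm36486 region 324 and 580 bp. All 4 were at 0 bp in both treated lists, as the rule requires, and the first stood well above the others in score.

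In 2 further lost regions at coding starts, a match to the STAT3 motif TTCCNGGAA lay inside the region, upstream of the start. They are shown because Bcl6, a transcriptional repressor, is under the control of STAT factors in other cells, and Crxos is a homeobox gene expressed in embryonic stem cells. The match at Bcl6 is at chr16:23981363-23981371 on the minus strand, and the match at Crxos at chr7:15901400-15901408 on the plus strand, with the motif in capitals.
Bcl6: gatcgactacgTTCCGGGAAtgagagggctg
Crxos: ccatTTCCTGGAAtcaagatccta

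Where a lost region touched several start windows, the 1 with the most overlap was kept. A window shared by lost regions was counted once. Searched on both strands and as exact letters, the 10 motifs ranged from none to 30 of the 49 windows kept. ESRRB (TCAAGGTCA) was found in 2 windows (4.08%, against 0.423% of all 32851 windows), STAT3 (TTCCNGGAA) in 3 (6.12% against 1.15%) and the POU octamer (ATTTGCAT) in 2 (4.08% against 1.74%). KLF (CCNCACCC) was found in 9 (18.4% against 16.6%), TCF (CTTTGAT) in 2 (4.08% against 3.73%) and SMAD3 (CAGAC) in 30 (61.2% against 49.6%). AP-1 (TGANTCA) was found in 2 (4.08% against 7.81%). The ETS motif (CCGGAAGT), the CRE (TGACGTCA) and the E-box (CACGTG) were in none, against 3.89%, 1.79% and 7.15% of all windows. These sets of windows were not matched for coding and non-coding starts, and no difference between them was tested. The POU octamer matches, at Gm39660 and Gm30440, lay outside the lost regions. So did the ESRRB match at Tmem191c and the STAT3 match at Sspn. Each window with a TCF or AP-1 match held a match inside its lost region. Motifs may overlap one another, a window touched may lie mostly outside its region, and these letters say nothing of whether a factor was bound. Median GC content was 50.7% in the 49 windows kept and 52.7% in all windows. No lost region overlapped any of 1005 microRNA hairpins.

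Most lost regions were low-ranked peaks in untreated cells. Their median score percentile was 34.0 in untreated clone a and 31.5 in clone b, where 100 is the strongest peak of a list. Regions called in all 4 lists had medians of 69.0 and 67.4. The score is the authors' own value for each peak and was compared only within its list. They were also narrow: the median covered length was 421 bp (interquartile range 291 to 643) in clone a and 386 bp (274 to 570) in clone b, against 957 and 903 bp for regions called in all 4 lists. Most lost regions held a single peak, 96.2% of them in clone a and 94.1% in clone b. Gained regions were much alike in the treated lists, with median percentiles of 31.1 in clone a and 38.1 in clone b. Their median covered lengths there were 391.5 and 428.5 bp, and 95.5% and 95.8% held a single peak.

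**Figure D1:**
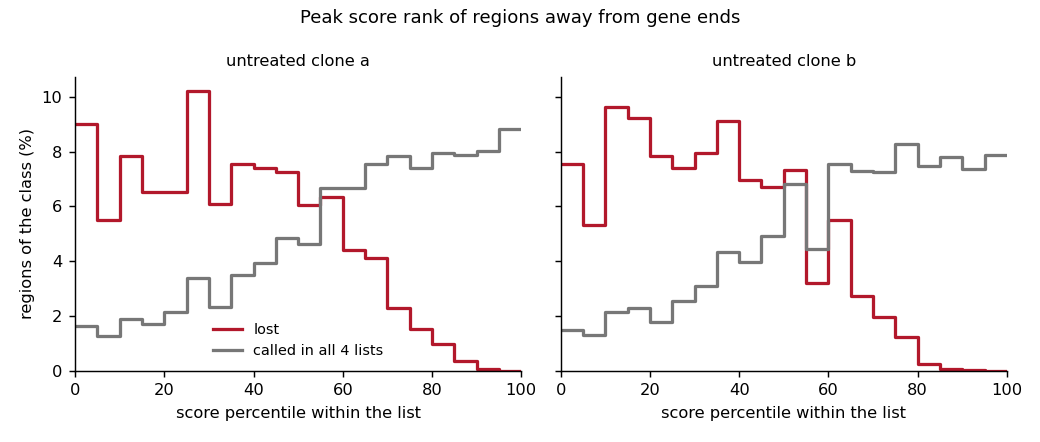
Score percentile within the list of each untreated library (x axis, in bins) against the percent of regions of the class (y axis), for lost regions and for regions called in all 4 lists, away from gene ends. The lost regions gather in the lower part of both lists (medians 34.0 and 31.5), and the regions called in all 4 lists in the upper part (69.0 and 67.4).

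Some lost regions were strong before treatment. In clone a 1056 (26.1%) ranked above the median of the list and in clone b 903 (22.3%), and 471 (11.6%) did so in both. Only 27 ranked above the 75th percentile in both clones, while 756 ranked below the 25th in both. The 2 clones ordered the lost regions loosely, with a Spearman correlation of 0.343 between score percentiles over the 4046 regions, which share libraries and neighbours. Over regions called in all 4 lists the same correlation was 0.791. Peaks of the 2 clones overlapped over a median of 60.4% of a lost region's width, and the peak was wider in clone a in 2299 regions, in clone b in 1731 and equal in 16.

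Agreement of both clones removed most candidates. In clone a alone 11952 regions away from gene ends had an untreated peak and no treated one, and in clone b 11597. Just outside the rule stood 3711 regions called in both untreated lists and in exactly 1 treated list, 2189 of them in treated clone a and 1522 in treated clone b. Their median percentiles in untreated cells, 44.4 and 38.7, lay between the values of lost regions and those of the regions in all 4 lists. At the distance limits, regions nearest Vmn1r83 and LOC115489489 (both 1009 bp from a gene end) were just inside, and regions near Hsp90b1 (986 bp) and Crxos (980 bp) just outside. At the far limit, regions nearest Sv2b (99950 bp) and Myc (99975 bp) were inside and those nearest Eea1 (100003 bp) and Vrk1 (100017 bp) outside.

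The strongest lost regions lay at genes of many kinds. The highest mean percentile belonged to a region 19.2 kb from Cdk18, a cyclin-dependent kinase gene, covered by 1585 bp in untreated clone a and 1477 bp in clone b, with score percentiles of 84.9 and 90.9. Next came a region within Smg9, which acts in nonsense-mediated decay, with 1035 and 1233 bp. The third lay 2.39 kb from AI593442, with 1392 and 1557 bp. The widest region, also by mean covered length, at chr12:99345425-99349271 within Foxn3, a forkhead repressor gene, was covered by 3382 and 3695 bp and was among the 10 highest by score. In all 4 the 2 untreated clones gave similar lengths.

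The other 6 of the 10 strongest lay near or within Gpc3, Orc5, Pax5, Kng2, Pter and Oc90. At Gpc3, a glypican gene on chromosome X, the region was covered by 1636 and 1269 bp. The region within Pax5, which encodes the B-cell factor PAX5, was covered by 2522 and 2041 bp. The region within Oc90 was uneven, with 1880 bp in clone a and 523 bp in clone b. After Foxn3, the largest mean covered lengths over the 2 untreated lists lay within Zdhhc1 (2544 and 3635 bp), within Macroh2a1, a histone variant gene (2887 and 2689 bp), 48.4 kb from Cbln4 (2640 and 2543 bp) and within Adgrd1 (2645 and 2477 bp).

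Lost regions lay farther from gene ends than the others. The median distance to the nearest end of a protein-coding gene was 21.3 kb, against 15.8 kb for gained regions and 15.7 kb for regions called in all 4 lists. Within 5 kb of an end lay 16.8% of lost regions, 23.2% of gained regions and 21.5% of those in all 4 lists. Over 50 kb away lay 23.9%, 19.5% and 18.9%. Inside a gene lay 1958 lost regions, 48.4% (95% Wilson interval 46.9 to 49.9%, counting error only and taking regions as independent), against 60.2% of gained regions and 52.0% of those in all 4 lists. The genes that held lost regions were long, with a median of 119 kb per region, against 83.6 kb for gained regions and 90.1 kb for the rest. These are descriptions with no test, since regions of the same libraries are not replicates.

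**Figure D2:**
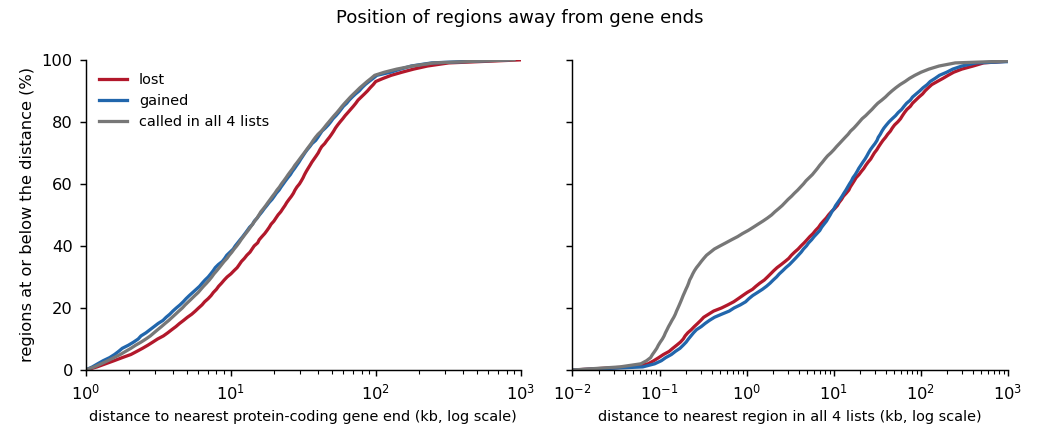
Cumulative percent of regions (y axis) at or below a distance in kb (x axes, log scale), to the nearest end of a protein-coding gene (left) and to the nearest other region called in all 4 lists (right). The lost curve lies to the right of the other curves for gene ends (medians 21.3, 15.8 and 15.7 kb for lost, gained and in all 4 lists) and beside the gained curve for neighbouring regions (medians 8.76 and 9.15 kb).

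By chromosome, the lost share of regions away from gene ends ran from 5.72% on chromosome 15 to 8.51% on chromosome 1, apart from chromosome Y with 0 of 16. On chromosome 13 the lost share was 8.05% and the gained share 4.90%. On chromosome 15 the order was opposite, with 5.72% lost and 7.21% gained.

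Lost regions stood beside other lost regions and rarely beside gained ones. Another lost region lay within 5 kb of 1484 of them (36.7%), while a gained region did so for 40 (0.989%). Gained regions showed the mirror image, with a gained neighbour within 5 kb in 39.5% and a lost one in 1.13%. Peaks were joined only where they overlapped, so close neighbours may be parts of 1 stretch. Merging peaks within 1000 bp gave 1918 lost regions, against 4046 here. A region called in all 4 lists lay within 5 kb of 1706 lost regions (42.2%), at a median distance of 8.76 kb. Over 50 kb from any region called in all 4 lists lay 853 lost regions (21.1%).

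Those neighbouring stretches were narrower after 4OHT. The 1449 regions called in all 4 lists that were nearest to a lost region, within 5 kb, had median covered lengths of 1359 bp in untreated clone a and 1242 bp in clone b. After treatment the medians were 886 bp in clone a and 789 bp in clone b, below both untreated values. The median treated-to-untreated ratio was 0.761 in clone a and 0.749 in clone b, against 1.02 in each clone over all 30131 regions called in all 4 lists. In 1063 of the 1449 (73.4%) the region was narrower in both clones, against 32.1% of all 30131. Beside gained regions the ratios were 1.27 and 1.30.

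The narrowing faded with distance and also appeared in the other clone when regions were chosen as lost from 1 clone. For neighbours within 1 kb of a lost region the ratios were 0.718 in clone a and 0.691 in clone b, and for those 5 to 25 kb away 0.967 and 0.970. When regions were chosen as lost from clone a alone, their 4178 neighbours had a ratio of 0.852 in clone b. When chosen from clone b alone, the 4060 neighbours had a ratio of 0.860 in clone a. Beside regions gained in 1 clone, the ratio in the other clone was 1.15 and 1.14. Regions chosen from 1 clone include the 4046 lost in both, so the choice is not independent of the clone read. Neighbours were required to have a peak in all 4 lists, and all these values come from the same 4 libraries, so they are given with no test.

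Lost regions were then grouped by distance. With members at most 25 kb apart taken as a run, 2117 stood alone, 586 runs held 2, 143 held 3 and 70 held 4 or more, so that 47.7% of lost regions were in a run. The share was similar among gained regions (48.8%) and higher among regions called in all 4 lists (73.6%). The 4046 regions had 2556 different nearest genes, of 21883 in the table. Of these genes 1670 had 1 lost region, 566 had 2, 320 had 3 or more and 73 had 5 or more.

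The run with the most members lay over Lefty2 and Lefty1, neighbouring genes for secreted inhibitors of NODAL signalling. It held 10 lost regions over 55.6 kb, at chr1:180874385-180930030, with Sde2, Lefty2 and Lefty1 among the nearest genes. Each was modest: those with most coverage in untreated clone a, beside Sde2 and Lefty1, had 859 and 958 bp there. The same regions had 255 and 357 bp in clone b. In clone b the most was 731 bp, at another region beside Sde2 that had 645 bp in clone a. All peaks in the span together covered 28400 bp in untreated clone a and 23846 bp in clone b. After 4OHT they covered 10774 bp in clone a and 13217 bp in clone b, both below the untreated values. The span held no gained region and 7 called in all 4 lists. The 3 lost regions nearest Lefty1 were 4.99 to 6.52 kb distant from it, and 1 was nearest Lefty2, at 10.3 kb. Within 1 kb of the ends of Lefty1 itself, peaks covered 2.02 and 1.89 kb in untreated clones a and b, against 0 in both treated clones.

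The 4 runs next in number of members differed in how much peak coverage was left. The run near H4bc24, in a histone gene cluster on chromosome 13 where near-identical copies could share reads, held 8 lost regions, and all peaks in it went from 25812 and 19350 bp in clones a and b to 12541 and 10130 bp. The run near Dars, which encodes aspartyl-tRNA synthetase, held 7, and went from 5285 and 5279 bp to 1244 and 334 bp. The run near Elf3, an epithelial ETS factor gene, and Gpr37l1 held 7, and went from 25790 and 17307 bp to 7653 and 6221 bp. The run near Lbx1, a homeobox gene of muscle and spinal cord, held 7, and went from 6141 and 5546 bp to 664 and 648 bp. In all 5 spans both treated values were below both untreated ones, as the choice of spans by their lost regions favours, and none held a gained region.

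**Figure D3:**
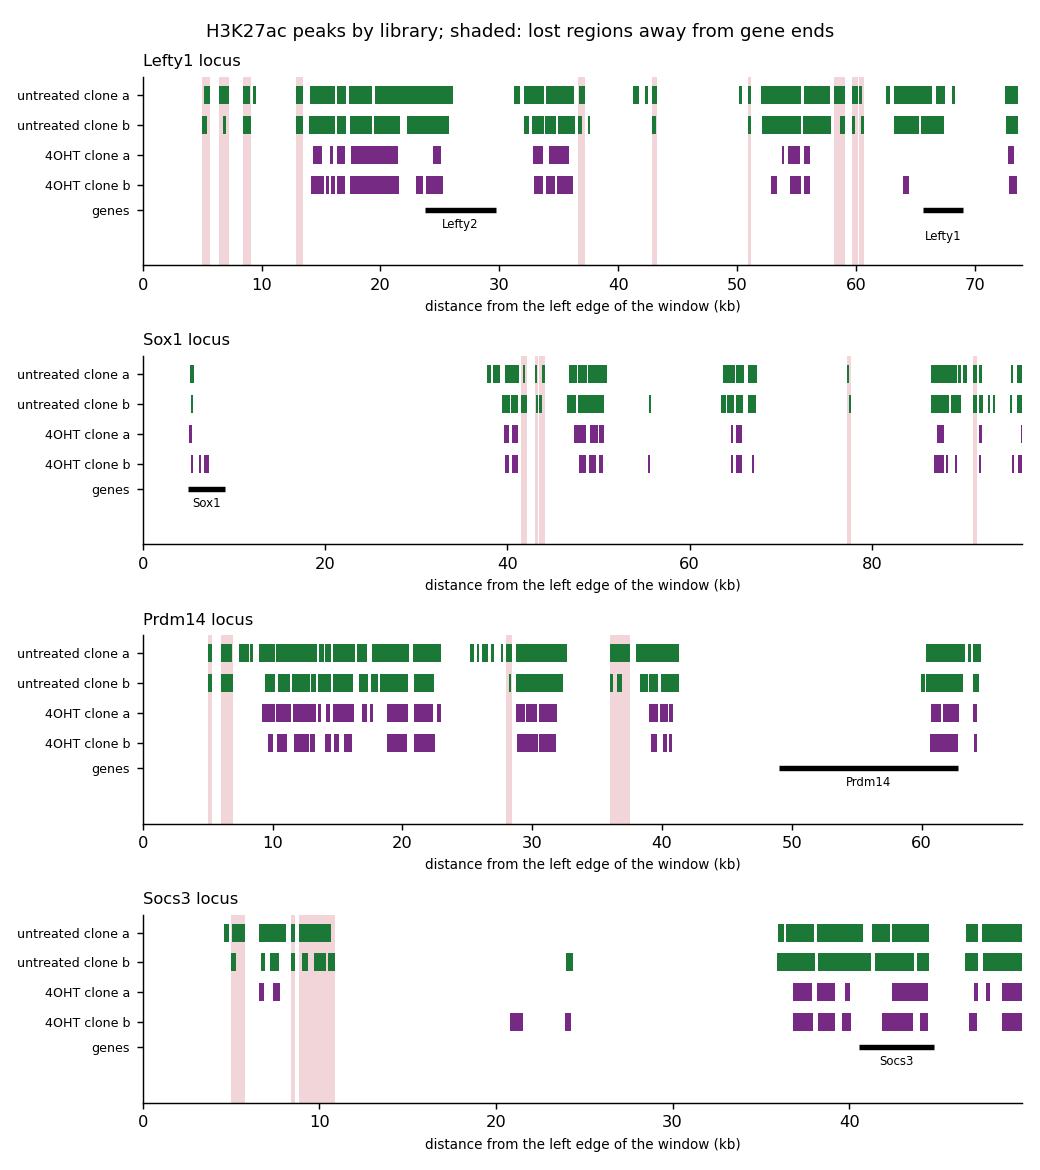
Peaks called in each library (boxes, 1 row per library) and the genes named in the text (black bars) at 4 loci, against distance from the left edge of each window in kb. Shading marks the lost regions, and peaks that remain beside them in treated libraries are mostly shorter. The Lefty1 window shows all 10 lost regions of its run, and the Sox1, Prdm14 and Socs3 windows 5, 4 and 3.

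Counted by nearest gene, Magi1 and Clybl had the most lost regions. Magi1, a scaffold gene of cell junctions 608 kb long, had 12, of which 7 were inside it, beside 17 regions called in all 4 lists. They were covered by 8302 bp in untreated clone a and 6639 bp in clone b in sum. Clybl, a mitochondrial enzyme gene, had 10, with 8393 and 5480 bp. H4bc24, Dars, Lpp, Spock1 and Pknox2 had 8 each, and Amotl1, Lbx1 and Ank3 had 7. All 8 at Pknox2, a homeobox gene, and all 7 at Ank3, which encodes ankyrin G, lay inside the gene. A gained region was nearest to only 1 of these 10 genes, Lpp, which had 1. Long genes can be nearest to more regions, and these counts were not adjusted for length or for parts of 1 stretch counted apart.

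Genes were also read in 17 lists, each lost region counted at its nearest gene. The lists were chosen with earlier results of these data known, so they are described by counts, beside 51.4% lost among changed regions at all genes. In 6 of the 17 lists lost regions outnumbered gained ones, and only the naive pluripotency list held more than 20 lost regions. Nearness does not show which gene a region acts on. Leaving out a library drops a condition of the rule, so neither count can fall, and the balance moves with the condition dropped. Over all genes there were 9078 lost and 5299 gained with untreated clone a removed and 10100 and 5473 with untreated clone b removed. There were 6235 and 10097 with treated clone a removed and 5568 and 7881 with treated clone b removed. Shifts of single lists without a library are to be read beside these. Under every setting tried, gained regions were more numerous at immediate-early genes and at ERK feedback and ETS genes, and lost ones at LIF, JAK and STAT3 genes. At every other list the balance turned or became equal under at least 1 setting that kept every library.

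**Figure D4:**
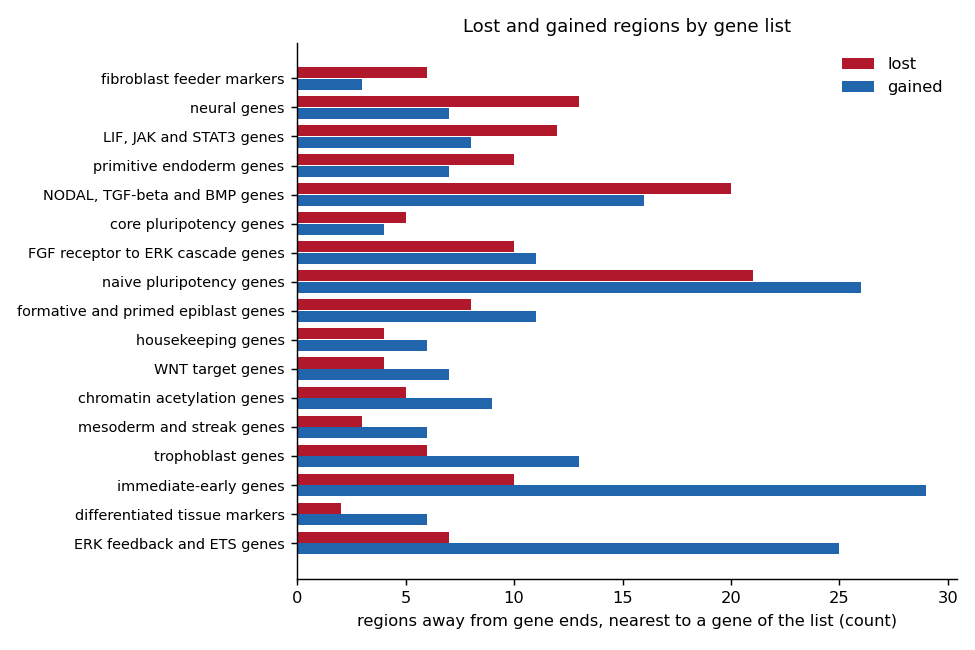
Number of lost and gained regions away from gene ends (x axis, count) whose nearest protein-coding gene is in each of 17 lists (y axis), ordered by the lost share. Lost regions were fewest relative to gained ones at ERK feedback and ETS genes (7 and 25) and outnumbered them at neural genes (13 and 7) and LIF, JAK and STAT3 genes (12 and 8).

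Genes of the pathway from FGF receptors to ERK had 10 lost and 11 gained regions, with 39 and 12 when untreated clone b was left out and 12 and 31 when treated clone b was. With the upper 50% of each list by score there were 0 lost and 2 gained. Ksr1, which encodes a scaffold for RAF, MEK and ERK, had 3 of the lost regions, all inside it, covered by 205, 389 and 483 bp in untreated clone a and by 249, 200 and 218 bp in clone b. Genes that ERK induces as feedback, and ETS factor genes, had 7 lost regions against 25 gained. Spry1, an inhibitor of receptor tyrosine kinase signalling, had 2 lost regions, 28.4 and 29.2 kb away, and 1 gained. Coverage at the lost ones was 357 and 313 bp in clone a and 640 and 1039 bp in clone b. Etv5, an ETS factor gene, had 1 lost region inside it (574 and 547 bp) and none gained. Epha2 had 2 lost and 1 gained.

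Immediate-early genes, which respond to growth factors within minutes, had 10 lost regions against 29 gained, and 7 against 10 within 20 kb of the gene. Atf3, a stress-induced transcription factor gene, had 3 of them, 3.47 to 7.02 kb away, and no gained region. They were covered by 276, 571 and 637 bp in untreated clone a and by 360, 982 and 794 bp in clone b. Btg2, an antiproliferative gene, had 2, 3.63 and 7.47 kb away, of 276 and 248 bp in clone a and 282 and 214 bp in clone b. Myc had 2 lost regions, 99.2 kb and 99975 bp away, and 5 gained ones. Single lost regions were nearest to Egr4, Fosb and Klf6. Klf6 also had 2 gained regions, and Egr4 and Fosb had none.

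Naive pluripotency genes had 21 lost and 26 gained regions, at 11 and 9 of 25 genes. Prdm14, which encodes a repressor that guards the naive state, had 4 lost regions, 11.5 to 43.7 kb away, and none gained. Covered lengths were 244, 815, 436 and 1555 bp in untreated clone a and 352, 935, 200 and 568 bp in clone b. Tfap2c had 3 lost and 2 gained. Nanog had 2 lost regions, 19430 and 20002 bp away (230 and 656 bp in clone a, 227 and 348 bp in clone b), and Klf2 had 2, at 11.4 and 27.6 kb (705 and 688 bp in clone a, 454 and 404 bp in clone b). None was nearest to Klf4, Esrrb or Pou5f1. The balance of the naive list turned with the settings: with the upper 50% of each list by score it was 11 lost and 5 gained, and within 20 kb of the gene 8 lost and 22 gained. With peaks merged within 1000 bp the naive list held 4 lost and 6 gained regions, beside 1918 and 1854 at all genes.

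Core pluripotency genes had 5 lost and 4 gained regions, with 6 and 24 when treated clone b was left out and 14 and 6 when untreated clone b was. At Sox2, 1 region 39.6 kb away was lost, with 509 and 575 bp in the 2 untreated lists, beside 1 gained and 10 called in all 4 lists. Foxd3 had 2 lost and 1 gained, Sall4 had 1 of each, and Lin28a had 1 lost and none gained.

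Genes of LIF signalling had 12 lost and 8 gained regions. Socs3, the STAT3-induced inhibitor of JAK kinases, had 3 lost and none gained, in a group 29.7 to 34.8 kb away. The largest, at chr11:117934395-117936388, was covered by 1775 bp in untreated clone a (score percentile 85.1) and 1434 bp in clone b (score percentile 53.3). Lifr, the LIF receptor gene, had 3 lost, 2 of them inside it, and 1 gained. They were covered by 561, 400 and 455 bp in clone a and 357, 536 and 200 bp in clone b. Pim3 had 2 lost regions, and Pim1, Socs2, Bcl3 and Lif had 1 each. Of these genes only Socs2 had a gained region, 1. Within the upper 50% of each list by score the counts were 5 lost and 1 gained.

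Genes of NODAL, TGF-beta and BMP signalling had 20 lost and 16 gained regions, at 11 of 29 genes. Id2, which encodes an inhibitor of basic helix-loop-helix factors, had 4 lost and none gained, from 2.96 to 74.0 kb away. They were covered by 378, 1121, 276 and 705 bp in untreated clone a and 263, 657, 259 and 438 bp in clone b. Lefty1 had 3 and Lefty2 had 1, as above. Among receptors and transducers Smad3 had 2 lost and 1 gained, and Tgfbr2 had 2 of each. Smad2, Smad6, Bmpr1a and Bmpr2 had 1 lost each and none gained. The ligand gene Bmp7 had 1 lost and 3 gained. With the upper 50% of each list by score this list held 3 lost and 10 gained regions, and without treated clone b 22 and 34.

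Among differentiation lists, neural genes had 13 lost and 7 gained regions. Sox1, the earliest marker of neural precursors, had 5 lost and none gained, 32.5 to 82.1 kb away, covered by 200 to 376 bp in untreated clone a and 247 to 693 bp in clone b. Msi1, an RNA-binding protein gene of neural progenitors, had 4, all inside it, of 274 to 953 bp in clone a and 281 to 935 bp in clone b. Neurod1, Neurog1, Hes1 and Pax7 had 1 each. Within 20 kb of the gene the neural list held 7 lost and 7 gained regions.

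Formative and primed epiblast genes had 8 lost and 11 gained regions, and 8 and 5 with the upper 50% of each list by score. Foxp1, a forkhead factor gene, had 5 of the lost regions, all inside it, of 203 to 927 bp in untreated clone a and 247 to 669 bp in clone b. Otx2, a homeobox regulator of the exit from naive pluripotency, had 2, at 34.6 and 42.3 kb, of 305 and 882 bp in clone a and 570 and 1117 bp in clone b. Neither gene had a gained region. Primitive endoderm genes had 10 lost and 7 gained, and 13 lost and 21 gained without treated clone b. The basement membrane genes Col4a1, Lamb1 and Lamc1 had 2 lost each, with 2 gained at Lamc1 and none at the others. Mesoderm and streak genes had 3 lost and 6 gained, and trophoblast genes 6 and 13. WNT target genes had 4 and 7, with Tcf7l1 holding 2 of the lost ones and 1 of the gained.

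Chromatin acetylation genes had 5 lost and 9 gained regions, with 3 of the lost at Arid1b, a subunit gene of the BAF remodelling complex, and 1 at Hdac2, which encodes a histone deacetylase. Housekeeping genes had 4 lost and 6 gained. The fibroblast list had 6 lost and 3 gained, all of them at Fn1, the fibronectin gene, which was covered within 1 kb of its ends in all 4 libraries. The list of differentiated tissues had 2 lost and 6 gained, both lost ones within Pax5, whose gene ends were at 0 in all 4 libraries. Pax5 was also nearest to 1 of the gained ones. Fgf8, Fgfr2, Tfap2c and Ets2 stand in 2 lists each and are counted in both.

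Peak coverage around the named genes was then read per library, over the gene and 50 kb on either side. At Lefty1 it was 33.2 kb in untreated clone a and 28.03 kb in clone b, against 12.6 and 14.9 kb after treatment. At Id2 it was 13.3 and 10.2 kb against 4.998 and 4.04 kb. At Socs3 it was 26.0 and 25.5 kb against 15.9 and 13.6 kb. In these 3 loci both treated libraries were below both untreated ones. The same held at Foxp1 (18.9 and 19.1 kb against 12.03 and 11.4 kb), Prdm14 (29.8 and 23.0 kb against 16.9 and 13.6 kb), Sox1 (7.81 and 7.14 kb against 4.47 and 4.16 kb) and Otx2 (16.8 and 18.7 kb against 9.83 and 12.1 kb). The lost regions lie in these windows, so the lower treated values follow in part from the choice of genes.

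Other loci with lost regions ranged from overlapping groups to groups far apart. At Nanog coverage was 38.9 and 32.4 kb in untreated clones a and b, against 32.5 and 28.1 kb in treated ones, so the groups overlapped, although each clone was lower after treatment. At Msi1, with 4 lost regions, it was 22.8 and 17.7 kb against 24.5 and 20.2 kb, higher after treatment in each clone. It was lower in each clone at Sox2, with 22.9 and 20.9 kb against 21.7 and 20.8 kb. The same held at Etv5, with 38.7 and 33.5 kb against 36.0 and 32.0 kb, and the groups overlapped at all 4 genes. At Magi1, with the most lost regions, it was 42.4 and 29.1 kb against 27.3 and 19.0 kb, with clone a higher than clone b in both groups. At Clybl (32.3 and 22.8 kb against 14.1 and 11.2 kb), Spock1 (10.2 and 11.6 kb against 2.45 and 3.08 kb) and Pknox2 (16.6 and 16.3 kb against 4.20 and 3.72 kb) the groups stood well apart.

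**Figure D5:**
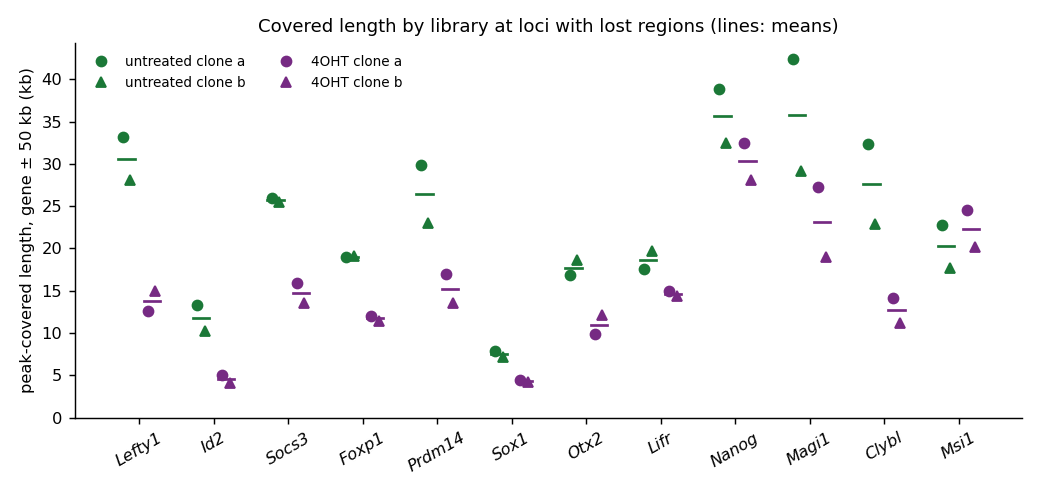
Peak-covered length in kb (y axis) over each gene and 50 kb on either side, for 12 genes with lost regions (x axis), with 1 point per library and a line at each group's mean. Both treated points lie below both untreated ones at 10 of the 12 genes, and the groups overlap at Nanog, lower after treatment in each clone, and Msi1, higher in each.

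Across all genes, limma (adjusted p under 0.05, on the log2 of covered bp plus 500) called 461 of 16045 loci lower after 4OHT (2.87%) and 642 higher (4.00%). Among the 2332 tested genes nearest to a lost region, 275 were lower and 23 higher, and the median log2 change was -0.26 against 0.08 over all loci. The regions that chose these genes lie inside the windows, so nothing is read from the difference. With clone as a factor (a paired fit) 1058 of these genes were lower and 201 higher, beside 2485 lower (15.5%) and 3637 higher (22.7%) of all 16045. Leaving out untreated clone a, treated clone a or treated clone b left no locus called in either direction, and leaving out untreated clone b left 66 of these genes lower, of 90 over all loci.

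The ends of the same genes, which the lost regions avoid by rule, passed the test nowhere. Within 1 kb of gene ends limma called 0 of 9663 genes lower and 0 higher (0% and 0% of all genes), and so 0 of the 1336 tested genes nearest to a lost region. With 2 libraries per group, the lack of calls does not show that the ends were unchanged. The ends of Lefty1, given above, had no peak in either treated clone, and Lefty1 was still not called. At an unadjusted p under 0.05 there were 102 lower and 121 higher among these 1336, and 298 lower and 1252 higher among all 9663. The median log2 change was 0.03 for the nearest genes and 0.07 for all, and 40.6% of the nearest genes were below 0, against 29.8% of all. Socs3 covered 2.18 and 2.50 kb at its ends in untreated clones a and b, against 0.917 and 0.942 kb in treated ones, and Pou5f1, which has no lost region, 2.22 and 2.18 kb against 3.39 and 3.27 kb.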

How the data were processed

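The 4 H3K27ac peak lists (untreated and 4OHT, clones a and b) were analysed; the 4 input libraries of the labels were not analysed here. Each deposited list holds the peaks of a single library. Per the submitters' processing notes the authors used Bowtie2, bedtools and MACS2 on build mm10; for versions, thresholds and any use of inputs, the sources used here give nothing. The score deposited with each peak is the authors' value, with no stated scale, and was used only within its list, as a percentile of the highest peak score in a region.

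Peaks were merged at 1 bp overlap and placed by a RefSeq gene table (GRCm38.p6), whose 21883 protein-coding intervals carry no strand. Peak-covered length was summed per gene within 1 kb of its ends (mean of at least 500 bp) and with 50 kb flanks (at least 1000 bp). It was fitted in limma 3.58.1 (R 4.3.3, trend) on the log2 of covered bp plus 500, with p-values adjusted by Benjamini-Hochberg and no clone term. Tested on simulated data, the fits recovered 69.5% of 200 genes changed by 2 on the log2 scale among 9663 gene ends, and 62% among 16045 loci. The simulation used independent noise, spreads shuffled across genes and no clone effect, so recovery in the real data may differ. Clone letters pair the treatments per the labels: clone deviations from group means correlated at 0.611 over loci and 0.399 over gene ends between untreated and treated cells. Other values were computed in Python 3.11.15.

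Members, lists and tests were chosen with earlier results of these data known. Named genes were those of the 10 highest-scoring and 5 widest (by mean untreated covered length) lost regions, the 10 genes nearest to most lost regions, the 5 runs with the most lost regions, up to 4 genes per list, 14 genes always where they hold a lost region (Sox1, Prdm14, Socs3, Lefty1, Lifr, Otx2, Nanog, Klf4, Esrrb, Pou5f1, Sox2, Etv5, Btg2 and Atf3), and the regions nearest the limits. Other names were added after their values were seen. Some genes that the rule names are not reported here. The planned search of whole regions for motifs was replaced by RefSeq start windows, since no genome was used here. Alternatives covered score filters, equal list lengths, 50% coverage, merging within 1000 bp, distance limits, pseudocounts of 100 and 2000 bp, no length filter, scaling to each library's covered total, window sizes, clone as a factor and leaving out each library.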

Additional observations from a re-analysis of the deposited data

How the results depend on the processing

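With the upper 50% of each list by score there were 1947 lost regions (median percentile 65.5, median covered length 829.5 bp), and with the top 20000 peaks 1216 (78.5, 1255.5 bp, 45.8% inside a gene). In such shortened lists a lost region may still hold a weaker treated peak. With equal list lengths the median percentile was 35.3. Merging within 1000 bp gave 1918 lost regions, 525 bp and 50.1% inside a gene, and a limit of 20 kb gave 64.5% inside a gene and 3 lists with more lost than gained regions. Leaving out 1 library in turn relaxes the rule, so counts of lost regions cannot fall. It gave 5568 to 10100 lost regions, 47.3 to 53.3% inside a gene and median percentiles of 22.2 to 35.1. Median lengths were 307 to 450.5 bp, and 2 to 13 lists had more lost regions. Of 187 values for single lists under these settings, those of the relaxed rule included, 87 stayed within 1.5 times the main count and 100 did not.

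For neighbours called in all 4 lists, the ratio (mean of the clones) was 0.704 within 1 kb and 0.968 at 5 to 25 kb. It was 0.852 and 0.860 in the other clone when lost regions were chosen from 1 clone, regions lost in both included. These settings were added after seeing the data. For gene ends, windows of 2 kb gave 9 lower and 5 higher of the 1495 genes nearest to a lost region. Of all 10524 genes 20 were lower and 74 higher. Lost regions 1 to 2 kb from an end lie in these windows, so nothing is read from these counts. All other settings, the paired fit with clone as a block included, gave 0 in both. For loci of these nearest genes, the clone block gave 1058 lower (45.4%, against 15.5% of all loci), the upper 50% of each list 73 (3.41% against 0.932%), and leaving out 1 library 0 to 66 (0 to 90 of all loci). The cause of these changes was not tested, apart from the fewer peaks or libraries that a setting leaves. Clones could be paired only by letter, and with 2 libraries per group the fits borrow variance across genes. Whole-region motif alternatives were not run.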
